A study of Rattus norvegicus with 6 samples.

Results

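Small leucine-rich proteoglycans (SLRPs) are secreted matrix proteins, and 9 of their genes are described here across rat hippocampal RNA after mild or intense treadmill training: osteoglycin (Ogn), fibromodulin (Fmod), osteomodulin (Omd), biglycan (Bgn), decorin (Dcn), asporin (Aspn), lumican (Lum), Prelp and keratocan (Kera). Probes were taken as members when the gene name of the array, without the ending "_predicted" or "_mapped", was one of these 9 names. This gave 9 of 41012 probes, which stand for 8 of the 9 genes, with 2 probes for Ogn and 1 for each other gene. The probe for asporin bears the older name LOC306805 and falls outside this rule, so it is given beside the members and counted apart from them. The family was selected on the ratios of these same arrays, in all 3 comparisons, so the ratios below are a description and were put to no test.

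An SLRP consists of a core of leucine-rich repeats that binds collagen fibrils and, in several members, growth factors such as TGF-beta. Many carry chondroitin, dermatan or keratan sulfate chains and control the width and spacing of fibrils. In the brain, fibrillar collagens and SLRPs are known mainly from fibroblasts of the meninges and of larger vessels, while the matrix between neurons is built largely of hyaluronan and of brain chondroitin sulfate proteoglycans such as aggrecan and neurocan.

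The rats were male Wistar rats, 11 weeks old at the start. The control group (CONT) rested on the treadmill, the mild exercise group (ME) ran at 15 m/min, below the lactate threshold, and the intense exercise group (IE) ran at 40 m/min, above it. Training lasted 6 weeks, with 60 min per day on 5 days per week. Running was habituated with slight electric shocks for 1 week in ME and for 4 weeks in IE. Some IE rats received shocks later as well, and IE rats that refused to run were left out of the study. Intensity, habituation, shocks and this selection therefore cannot be told apart. The sample records place sampling 24 or 36 h after training, and the methods of the study place it later. RNA from 5 rats was pooled for each group, and the pools were compared in 3 pairs (IE vs ME, and either of them vs CONT). Each pair was hybridized on 2 arrays, which carry both pools in different dyes, with the dyes exchanged on array 2. Both arrays of a pair repeat a measurement on the same pools. Each comparison therefore counts as 1 replicate, the SD given is that between 2 arrays, and rats could not be tested against each other. The records name the arrays of a swap as different pools, which the methods of the study do not.

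Ratios are log2 of exercise over CONT or of IE over ME, so that 1 stands for a doubling. A probe was called up when the ratio of the Cy5 dye to the Cy3 dye was at least 1.5 on array 1, where the first-named group carries Cy5, and no more than 0.75 on array 2, with a p of the scanner software below 0.01 on both, and called down when the reverse held. The software's p compares 2 pools on 1 array. Saturated spots numbered 0 on each array, and 66.5% to 74.4% of spots were well above background in both channels of an array. The arrays against CONT lie on 1 slide and those of IE vs ME on another. Precision is limited by the number of arrays. In bulk tissue fewer cells of a type and less RNA per cell cannot be told apart.

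The probes are 60-mers, and 6 of them, each of another gene, are shown because the ratios of each gene rest on 1 or 2 such stretches. Whether a probe lies in a coding or an untranslated part was not looked up here. They are written 5′ to 3′ as on the array, with their rat genome (rn3) positions being chr17:20988620-20988679 for Ogn, chr7:35057602-35061403 for Dcn, where the 60 bases are spread over a longer stretch of the genome, chr7:35106680-35106739 for Lum, chr13:46881183-46881242 for Prelp, chr17:21035836-21035895 for asporin and chr7:35144226-35144285 for Kera. Ogn, Prelp and asporin lie on the minus strand and Dcn, Lum and Kera on the plus strand. Capitals mark the longest run of bases that any 2 of the 10 probes share, which is 12 bases long and lies in Dcn and Lum.
Ogn A_44_P994238: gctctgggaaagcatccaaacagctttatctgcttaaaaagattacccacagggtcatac
Dcn A_42_P647599: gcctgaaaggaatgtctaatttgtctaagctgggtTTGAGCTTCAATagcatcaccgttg
Lum A_44_P458627: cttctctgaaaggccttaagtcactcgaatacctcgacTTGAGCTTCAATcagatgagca
Prelp A_44_P130582: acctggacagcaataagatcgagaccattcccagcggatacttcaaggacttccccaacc
LOC306805 (asporin) A_44_P253073: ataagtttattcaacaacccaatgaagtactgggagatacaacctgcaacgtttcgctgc
Kera A_44_P426974: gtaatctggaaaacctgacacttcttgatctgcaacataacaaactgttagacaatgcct
The next longest shared run had 8 bases. No other probe of the array shared 20 bases in a row with a member on the same strand, and an expressed sequence tag (AI011747, A_44_P172426) shared 20 or more with Prelp on the opposite strand.

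With ME, the largest ratios of the family were those of Ogn, Fmod and Omd, and RefSeq's sequence (GRCr8 build) upstream of these genes is shown for that reason. For Fmod (plus strand, chr13:48045317-48045566) and Omd (minus strand, chr17:15274871-15275120) it is the 250 bases before the transcription start. For Ogn (minus strand, chr17:15259201-15259230) it is 30 bases at positions -235 to -206 from the start site used by the table, cut from the 250 bases searched because they surround the match. Capitals mark matches to 5 motifs searched on both strands, namely TATAAA, then CCAAT, then GGGCGG, then TGANTCA and then AGGTCA.
Ogn upstream: ttttaaaaagaTTTATAAActagcattcac
Fmod upstream: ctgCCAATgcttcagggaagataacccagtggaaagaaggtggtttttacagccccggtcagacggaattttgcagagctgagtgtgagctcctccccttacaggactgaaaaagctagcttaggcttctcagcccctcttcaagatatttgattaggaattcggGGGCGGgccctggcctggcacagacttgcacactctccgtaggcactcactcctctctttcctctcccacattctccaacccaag
Omd upstream: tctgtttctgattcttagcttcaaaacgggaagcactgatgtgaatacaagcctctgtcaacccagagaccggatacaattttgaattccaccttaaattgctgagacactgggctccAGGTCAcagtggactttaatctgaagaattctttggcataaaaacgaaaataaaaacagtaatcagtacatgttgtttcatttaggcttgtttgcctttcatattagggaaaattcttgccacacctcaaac
The 3 upstream regions had no motif in common. Ogn held TATAAA on both strands in overlapping positions, Fmod held CCAAT and GGGCGG, and Omd held AGGTCA. In the first 250 bases of 33469 RefSeq promoters, TATAAA was found in 12.9%, CCAAT in 34.0%, GGGCGG in 30.5%, AGGTCA in 14.1% and TGANTCA in 6.34%. Lum and Kera held CCAAT, at 1 and 3 places, and Aspn held none of the 5. These are matches of letters, and binding was not measured.

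Ogn, a keratan sulfate proteoglycan also called mimecan, had the highest ratios of the family with ME. Probe A_43_P16740 (chr17:20987215-20987274, minus strand) read 1.41 and 1.20 on the 2 ME vs CONT arrays (1.31 ± 0.14, mean ± SD, n = 2 arrays), a 2.47-fold difference. Probe A_44_P994238 read 1.25 and 1.14 (1.20 ± 0.080), a 2.29-fold difference. Both probes were called up, and among the 28896 probes well above background in this comparison they ranked 4 and 7 from the highest.

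With IE, the Ogn ratios lay on both sides of 0. A_43_P16740 read 0.089 and -0.20 on the IE vs CONT arrays (-0.053 ± 0.20). A_44_P994238 read 0.14 and -0.38 (-0.12 ± 0.36). Neither probe was called, and on array 1 the IE pool was the brighter and on array 2 the CONT pool for both probes.

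The direct IE vs ME arrays showed Ogn lower in the IE pool. A_43_P16740 read -1.25 and -1.46 (-1.35 ± 0.15), so that IE stood at 0.391 times ME. A_44_P994238 read -1.28 and -0.98 (-1.13 ± 0.21), at 0.457 times ME. Both probes were called down and ranked 2 and 8 from the lowest of 25803 probes well above background. The processed signals of A_43_P16740, on a linear scale, were 867 and 940 in the ME pool against 355 and 376 in CONT on the first slide, and 933 and 1066 in ME against 388 and 392 in IE on the other slide. The ME pool gave the brighter signal on all 4 arrays that held it. For the dimmer probe A_44_P994238, whose raw signal was 2.12 to 7.96 times the local background, the ME ratio was 0.75 after normexp background correction and 0.88 without background subtraction. For the brighter probe A_43_P16740 the ME ratio was 1.01 and 1.11 under these settings.

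**Figure D1:**
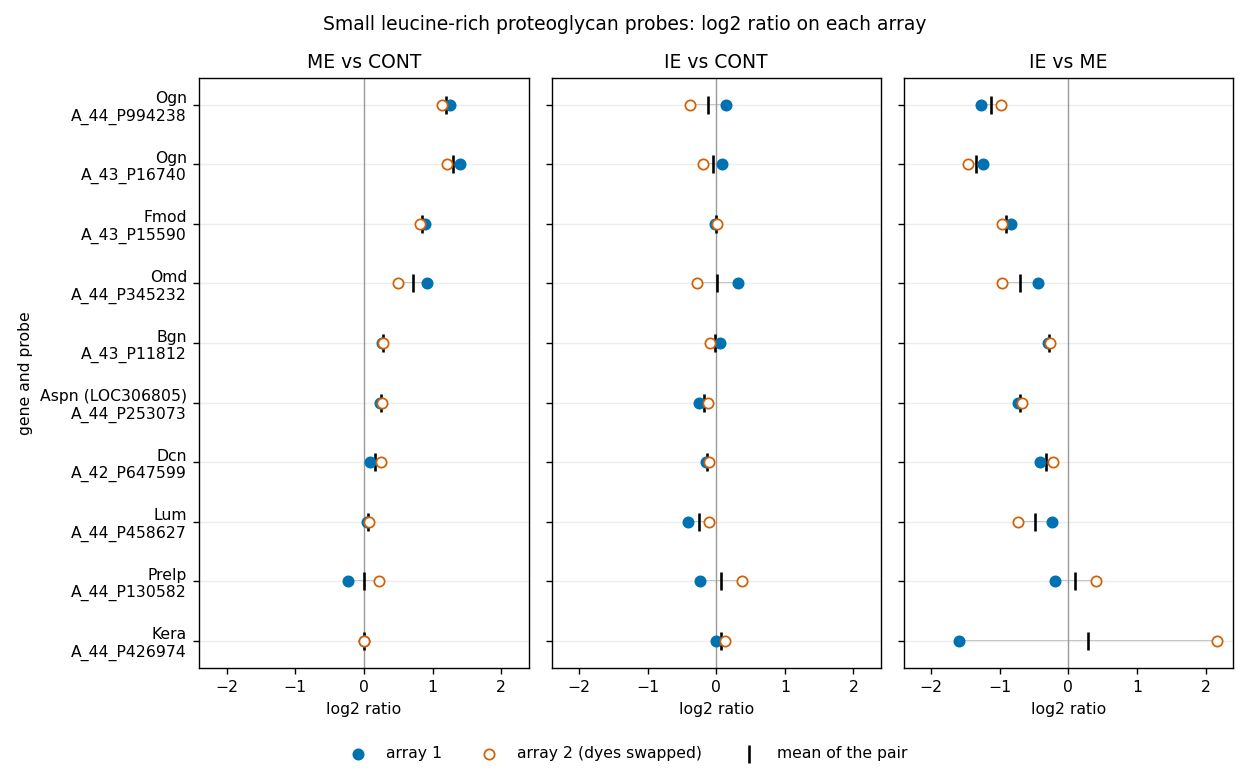
Log2 ratios (x axis) of each SLRP probe (y axis) in each of the 3 comparisons (1 panel each), with array 1 as a filled point, the dye-swapped array 2 as an open point and their mean as a bar. Ogn, Fmod and Omd lie to the right of 0 with ME (means 0.71 to 1.31) and to the left in IE vs ME, Prelp changes side between arrays of every pair, and Kera spans -1.60 to 2.16 in IE vs ME.

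Fmod and Omd, keratan sulfate proteoglycans of the fibromodulin class, stood next to Ogn. Fmod, which binds type I collagen and limits fibril growth, read 0.89 and 0.81 with ME (0.85 ± 0.056), a 1.80-fold difference at probe A_43_P15590 (chr13:47012306-47012365, plus strand). It was called up and ranked 28 from the highest, and its ME ratio was 0.77 after normexp correction and 0.79 without background subtraction. With IE its ratios were -0.015 and 0.018 (0.0015 ± 0.024), the mean nearest to 0 of the 8 member probes well above background. In IE vs ME it read -0.83 and -0.98 (-0.91 ± 0.099), was called down and ranked 16 from the lowest. Its processed signal was 1608 and 1742 in ME against 917 and 940 in CONT, and 861 and 821 in IE against 870 and 811 in CONT, so the ME pool lay above CONT on both arrays while the IE and CONT pools changed order between arrays.

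Omd, first known from bone matrix, read 0.92 and 0.50 with ME (0.71 ± 0.30), a 1.64-fold difference at probe A_44_P345232 (chr17:21015274-21015333, minus strand). It passed the fold range on both arrays, but the software's p-value on array 2 was 0.0186, so it was not called. With IE it read 0.31 and -0.29 (0.013 ± 0.42). On the IE vs ME arrays it read -0.44 and -0.96 (-0.70 ± 0.37), again past the fold range, and the software's p-value on array 1 was 0.0407. Its readings were 2.00 to 7.12 times the local background, and its ME ratio was 0.33 after normexp correction and 0.44 without background subtraction, below the value by the software. In all 3 pairs the first and the second array of Omd differed by more than those of Fmod.

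**Figure D2:**
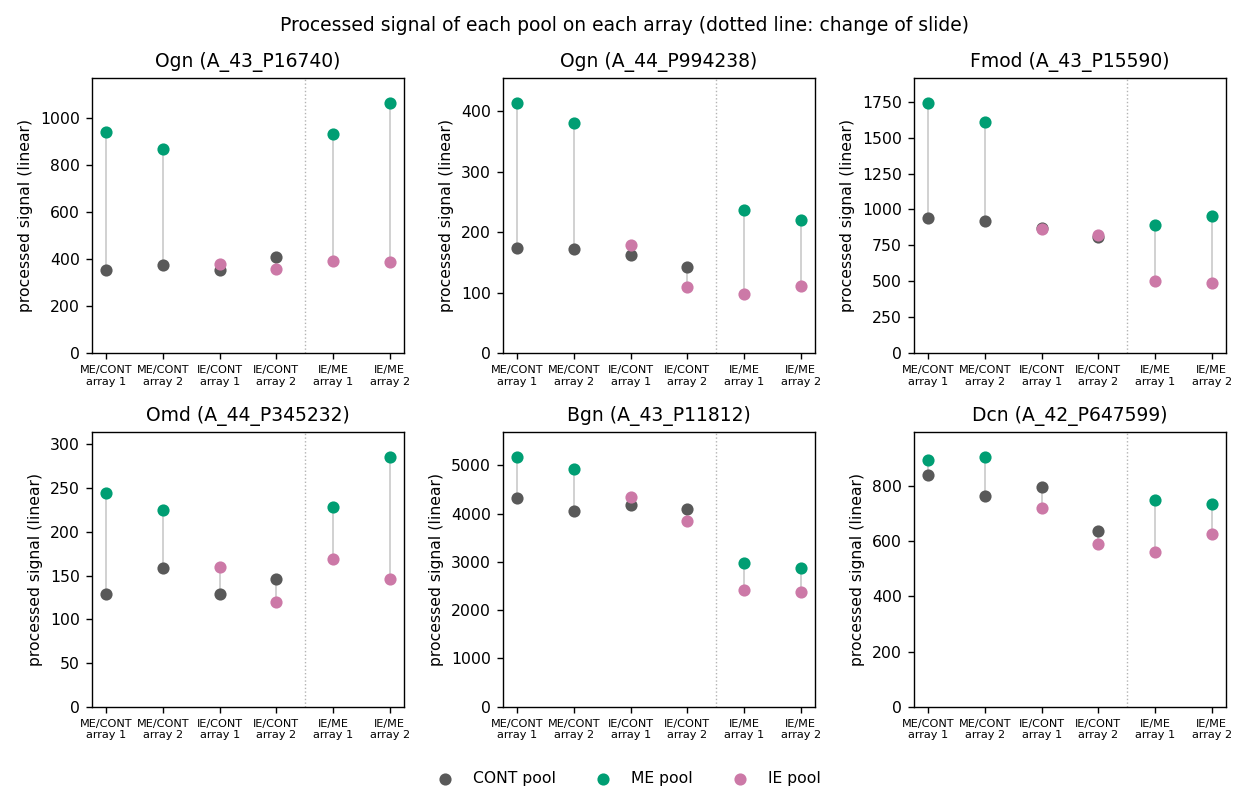
Processed signal on a linear scale (y axis) of the CONT, ME and IE pools on each of the 6 arrays (x axis) for Ogn, Fmod, Omd, Bgn and Dcn, with a line joining the pools of 1 array. The ME pool is the brighter on all 4 of its arrays for each of these 6 probes (for Ogn A_43_P16740, 940 in ME against 355 in CONT on ME vs CONT array 1 and 1066 in ME against 388 in IE on IE vs ME array 2).

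Biglycan, decorin and asporin form the decorin class, of which biglycan and decorin carry chondroitin or dermatan sulfate and asporin none. Their ratios with ME were smaller and of one sign. Bgn (A_43_P11812, chrX:159466782-159466841, plus strand) read 0.26 and 0.28 (0.27 ± 0.013, 1.21-fold), with readings 31.2 to 99.1 times the local background. With IE it read 0.056 and -0.091 (-0.018 ± 0.10), and in IE vs ME -0.30 and -0.27 (-0.29 ± 0.023). The small SDs reflect repeated measurement of the same pools and not the spread between rats.

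Dcn, the collagen-binding proteoglycan after which the class is named, read 0.091 and 0.24 with ME (0.17 ± 0.11). With IE it read -0.15 and -0.11 (-0.13 ± 0.025). Between IE and ME it read -0.42 and -0.23 (-0.33 ± 0.13). It was not called in any comparison, and its ratios with ME and with IE had opposite signs on every array.

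LOC306805, described on the array as similar to the asporin precursor and matched to Aspn through its RefSeq accession, read 0.24 and 0.26 with ME (0.25 ± 0.013). With IE it read -0.24 and -0.12 (-0.18 ± 0.087). In IE vs ME it read -0.73 and -0.67 (-0.70 ± 0.038), past the fold range but not the p threshold. It was well above background in 11 of 12 readings, with signals 1.69 to 2.85 times the local background, the lowest maximum of the 10 probes.

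Lumican, Prelp and keratocan, which are also leucine-rich proteoglycans of the fibromodulin class, showed no ratio with ME past the fold range. Lum read 0.051 and 0.080 with ME (0.066 ± 0.021). With IE it read -0.40 and -0.11 (-0.26 ± 0.21), and in IE vs ME -0.24 and -0.73 (-0.48 ± 0.35). Its readings were 1.97 to 3.70 times the local background, and the IE vs ME ratio was -0.076 after normexp correction and -0.062 without background subtraction.

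Prelp, a basement membrane and cartilage protein with a heparin-binding end, read -0.23 and 0.23 with ME (-0.0044 ± 0.33). It read -0.24 and 0.37 with IE (0.067 ± 0.43). On the IE vs ME arrays it read -0.20 and 0.40 (0.098 ± 0.42). The sign turned with the dye swap in every pair, and the Cy3 pool was the brighter on all 6 arrays, whichever pool it was.

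Kera, a keratan sulfate proteoglycan of the cornea, was well above background in 1 of 12 readings. The software set its log ratio to 0 on both ME vs CONT arrays and on IE vs CONT array 1, and it gave 0.13 on IE vs CONT array 2. Between IE and ME it read -1.60 and 2.16 (0.28 ± 2.66). A level in hippocampus was not detectable at this signal, and no fold is read from it.

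By the calling rule, 3 of 9 member probes were called up with ME (both Ogn probes and Fmod), against 0.11% of all probes (45 of 41012). With IE 0 of 9 were called, and 0 passed the fold range without the p threshold, against 0.0293% of all probes called in either direction (12 of 41012). In IE vs ME 3 of 9 were called down, the same 3 probes, against 0.061% (25 of 41012). Since these contrasts chose the family, nothing is read from the counts. The median over the 9 probes was 0.27 with ME and -0.018 with IE, beside 0.00 and 0.00 over all probes. For IE vs ME it was -0.48, beside -0.0016.

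All 9 member probes were counted, and 8 of them (all but Kera) were well above background in every reading. Ratios of the same sign on both arrays, at any size, were above 0 with ME for 7 of these 8 probes (all but Prelp), against 13.6% of 28896 probes. In IE vs CONT they were above 0 for 0 of 8, against 14.6% of 28744 probes, and below 0 for 2 of 8 (Dcn and Lum), against 13.6%. On the IE vs ME arrays they were below 0 for 7 of 8, against 12.1% of 25803 probes. The ranks from the highest with ME were 38 for Omd, 490 for Bgn, 1324 for Dcn, 4614 for Lum and 14815 for Prelp.

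IE and ME can be set against each other directly on the second slide or through CONT on the first. The pools are shared by all arrays, CONT included on the first slide, so both routes read the same RNA. The direct mean minus the difference of the means against CONT was 0.0039 for Ogn A_43_P16740, 0.19 for Ogn A_44_P994238, -0.056 for Fmod, -0.0052 for Omd and 0.0014 for Bgn. It was -0.032 for Dcn, -0.16 for Lum and 0.026 for Prelp, all within the SD of their direct pair. For asporin it was -0.27, beyond the SD of 0.038 of the direct pair. In that pair the asporin reading of the IE pool on array 2 was not well above background. The SDs of the asporin pairs against CONT were 0.013 with ME and 0.087 with IE.

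**Figure D3:**
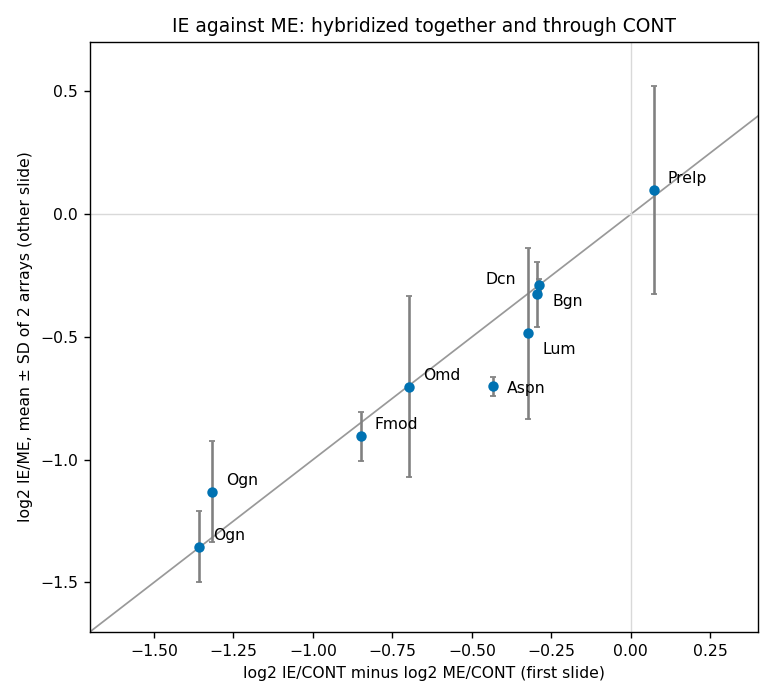
Log2 IE/ME measured on the second slide (y axis, mean ± SD of 2 arrays) against the difference of log2 IE/CONT and log2 ME/CONT on the first slide (x axis) for each SLRP probe but Kera, with the line of equal values. The points run from Ogn (-1.35 direct and -1.36 through CONT) to Prelp (0.098 and 0.071), and asporin lies 0.27 below the line.

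Most of these genes lie side by side in the genome. In RefSeq's order on GRCr8, Ogn, Omd and Aspn follow each other on chromosome 17, Dcn, Lum and Kera on chromosome 7, and Prelp and Fmod on chromosome 13, while Bgn lies apart on chromosome X. On the first of these, in rn3 positions, 26.6 kb separate the nearer Ogn probe from that of Omd and 20.5 kb that of Omd from asporin, and the ME means along it were 1.31, 1.20, 0.71 and 0.25. Of the named genes on either side, Nol8 had an ME mean of -0.024 and Ippk, an inositol kinase gene, one of -0.032. Between asporin and Ippk lie 5 probes without a gene name on the array, of which the 3 well above background had ME means of 0.014 (XM_214443), 0.093 (BE112913) and 0.025 (BF284985). The other two were -0.13 (BI290638) and -0.25 (BI288152), neither well above background in every reading, and the same held for BE100586 (-0.040) next to Nol8. Prelp and Fmod probes lie 131 kb apart and had ME means of -0.0044 ± 0.33 and 0.85 ± 0.056. The Prelp arrays read -0.23 and 0.23, and the sign turned with the dye swap. The levels of these neighbours on chromosome 13 could therefore not be compared. Btg2, the gene that follows Fmod, had an ME mean of 0.080. On chromosome 7, 45.3 kb separate Dcn from Lum and 37.5 kb Lum from Kera, and none of the 3 was called.

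The list of further SLRP genes held 10 names, older ones included, of which 5 were on the array. Only Dspg3 (epiphycan) and Chad (chondroadherin), both known from cartilage, were well above background in all readings of ME vs CONT. Dspg3 read -0.24 and -0.54 with ME (-0.39), and Chad read -0.37 and 0.09 (-0.14). Neither was called in any comparison.

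The probes whose 6 ratios were nearest to those of Ogn A_43_P16740 were taken by Euclidean distance, over 24715 other probes well above background in every reading and over 6 arrays that share 3 pools. The nearest were Col1a2 (0.309) and Col3a1 (0.356), which encode chains of type I and type III collagen, followed by Col1a1 (0.492), Ptgds (0.505), a prostaglandin D synthase made in the leptomeninges, and the stress-response gene Nupr1 (0.508). The other Ogn probe came next (0.536), then AW916070 (0.601), the chemokine gene Ccl19 (0.711), TC566757 (0.714) and a second Col1a2 probe (0.865). Fmod ranked 11 (0.940) and Omd 21 (1.30), while Bgn, Lum and Dcn ranked 119, 170 and 171 and Prelp 22742. The median distance over all compared probes was 2.71.

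**Figure D4:**
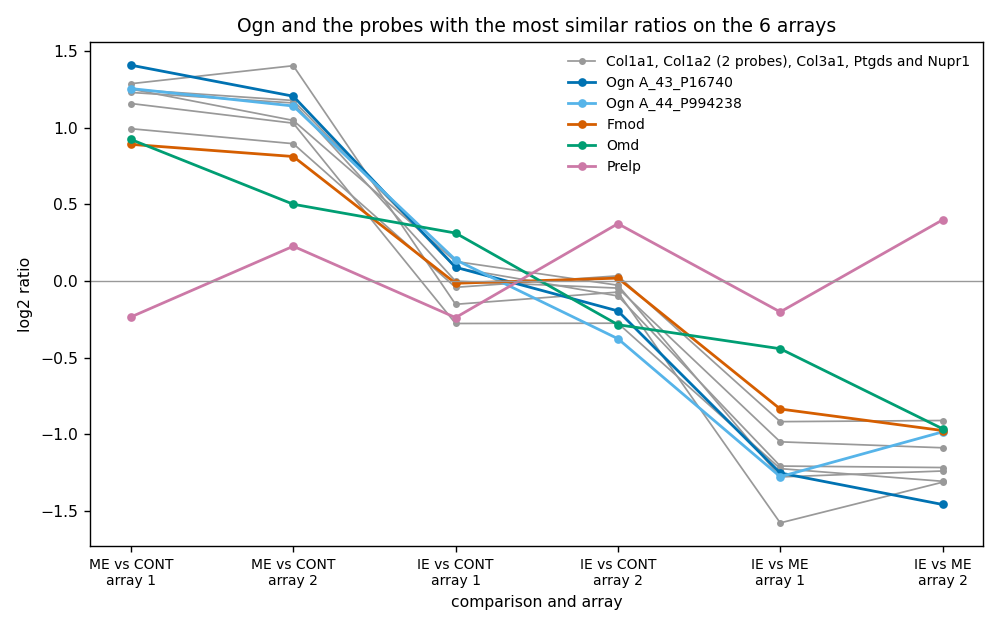
Log2 ratio (y axis) on each of the 6 arrays (x axis) for both Ogn probes, Fmod, Omd and Prelp in colour and for Col1a1, Col1a2, Col3a1, Ptgds and Nupr1, all near Ogn by distance, in grey. The grey lines run with Ogn from about 0.9 to 1.4 with ME to below -0.9 in IE vs ME, and Prelp alternates between arrays.

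The collagens to which SLRPs bind differed by gene. Of 26 probes of the 14 genes of fibrillar and associated collagens, 4 were called up with ME, namely Col1a1 (1.19 ± 0.048), both probes of Col1a2 (1.21 ± 0.051 and 0.94 ± 0.069) and Col3a1 (1.15 ± 0.14). The same 4 probes were called down in IE vs ME, from -0.91 to -1.26. In IE vs CONT 0 were called, and the 4 probes read between -0.024 and 0.049. Of all probes on the array, 0.11% were called up with ME, 0.061% down in IE vs ME and 0.0293% in either direction in IE vs CONT. Over the 20 probes well above background with ME the median was 0.034, and both Col11a1 probes (-0.069 ± 0.070 and -0.049 ± 0.024) were near 0. Col5a1 read -0.35 and 0.25 (-0.053 ± 0.43), so its sign changed between arrays.

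Among 37 probes of matrix glycoproteins and collagen processing, 2 were called up with ME, those of Pcolce (0.69 ± 0.015), an enhancer of procollagen cleavage, and Thbs2 (0.95 ± 0.16), a thrombospondin. The second Thbs2 probe read 0.71 and 0.56. Above 0 on both arrays were 15 of the 31 probes well above background, against 13.6% of 28896 probes, and the median of the 31 was 0.11. Of the ligands and receptors of SLRPs 0 of 22 probes were called with ME, and those well above background ran from Tgfbr1 (-0.23), the TGF-beta type I receptor, to Tlr4 (0.44), a receptor of free biglycan and decorin. Of the enzymes that build glycosaminoglycan chains 0 of 14 were called, and the median of the 13 well above background was -0.0043. These ran from Chsy1 (-0.58 and -0.32 on the 2 arrays, mean -0.45) to Chst1 (0.066). Below 0 on both arrays were 2 of the 13, and above 0 on both were 0. Of the brain chondroitin sulfate proteoglycans and perineuronal net genes 0 of 15 were called, with a range of -0.075 to 0.047. Only 0.11% of all probes were called up with ME, so a count of 0 says little about lists of this size.

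Many markers of meninges and fibroblasts were also brighter in the ME pool. With ME, 15 probes of 13 of the 17 genes on this list were well above background. Of these probes 7 were called up, against 0.11% of all probes. Above 0 on both arrays were 13, against 13.6% of 28896 probes, and the median was 0.69. Those called were Ptgds (1.34 ± 0.083), Cdh1 (1.16 ± 0.19), Foxc2 (1.12 ± 0.13), Igf2 (1.08 ± 0.36), Aldh1a2 (0.92 ± 0.18), Slc6a13 (0.83 ± 0.075) and Crabp2 (0.74 ± 0.032). A second Foxc2 probe read 0.047 and 0.0086, and Pdgfra read 0.21 and -0.068, so the list was not uniform. The summed processed signal of the 15 probes was 38240 to 41542 in ME and 19417 to 19704 in CONT. With IE 0 of the 15 were called, against 0.0293% of all probes. The 13 well above background had a median of -0.023, and their summed signal was 18568 to 18748 in IE and 18952 to 19436 in CONT. Between IE and ME, 5 of the 15 were called down, against 0.061% of all probes. The 11 well above background had a median of -0.63 and summed signals of 17164 to 17806 in IE and 36575 to 44009 in ME. No gene found on this list lacked a reading above background. The part of meningeal or fibroblast RNA in the SLRP ratios was not tested.

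Some choroid plexus markers were called up in both comparisons with CONT. Of 15 probes of the choroid plexus epithelium list, 3 were called up with ME and 5 with IE. Of all probes, 0.11% were called up with ME and 0.0293% in either direction with IE. Ttr (transthyretin, the carrier protein made by this epithelium) read 0.91 ± 0.24 with ME and 2.51 ± 0.35 with IE. Sostdc1 read 0.69 ± 0.14 and 2.76 ± 0.49, and the potassium channel gene Kcnj13 read 1.73 ± 0.62 and 2.09 ± 0.23. Called in IE vs CONT but not in ME vs CONT were Otx2 (0.89 ± 0.065) and Tmem27 (2.08 ± 0.24). With ME, Otx2 read 0.069 ± 0.13. Tmem27 read -0.82 ± 1.09 with ME and was not well above background in every reading. Folr1 and Enpp2, both well above background, had ME means of -0.045 and 0.043, with signs that differed between arrays. In IE vs CONT, Kcnj13 and Tmem27 were not well above background in every reading. In each comparison 7 probes were well above background. They were not the same 7, since Kcnj13 was among them in ME vs CONT but not in IE vs CONT. Those of ME vs CONT had summed signals of 3345 to 3530 in ME against 2731 to 3067 in CONT. Those of IE vs CONT had 6341 to 6905 in IE against 2959 to 3349 in CONT. The medians over these sets were 0.13 with ME and 0.33 with IE. For IE vs ME the median was 0.42, in a comparison with an SLRP median below 0. The marker Cldn2 had no reading above background. Of mural cells 1 of 8 probes was called up with ME, that of the smooth muscle gene Myh11 (0.69 ± 0.081). Among hippocampal neuron markers 0 of 16 probes were called in any comparison, with ME values from -0.10 to 0.070 and summed signals of 49948 to 50594 in ME and 48714 to 51148 in CONT, and all 9 genes found were read above background. Astrocyte, oligodendrocyte, microglia and endothelium lists had 0 called, with ME medians from -0.014 to 0.031. With so few of all probes called, a count of 0 says little about lists of this size. Of the cerebellum list, Gabra6 was called up with ME (2.78 ± 0.19) without being well above background in all readings, and the median was 0.022. In IE vs ME Gabra6 read -1.72 and -3.22, again not well above background in every reading. Pcp2, well above background, read 0.41 and 0.21 with ME and -0.59 and -0.53 in IE vs ME. Of the 7 probes of this list well above background with ME, 2 were above 0 on both arrays and 0 below. The part of these cells in the SLRP ratios was not tested.

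**Figure D5:**
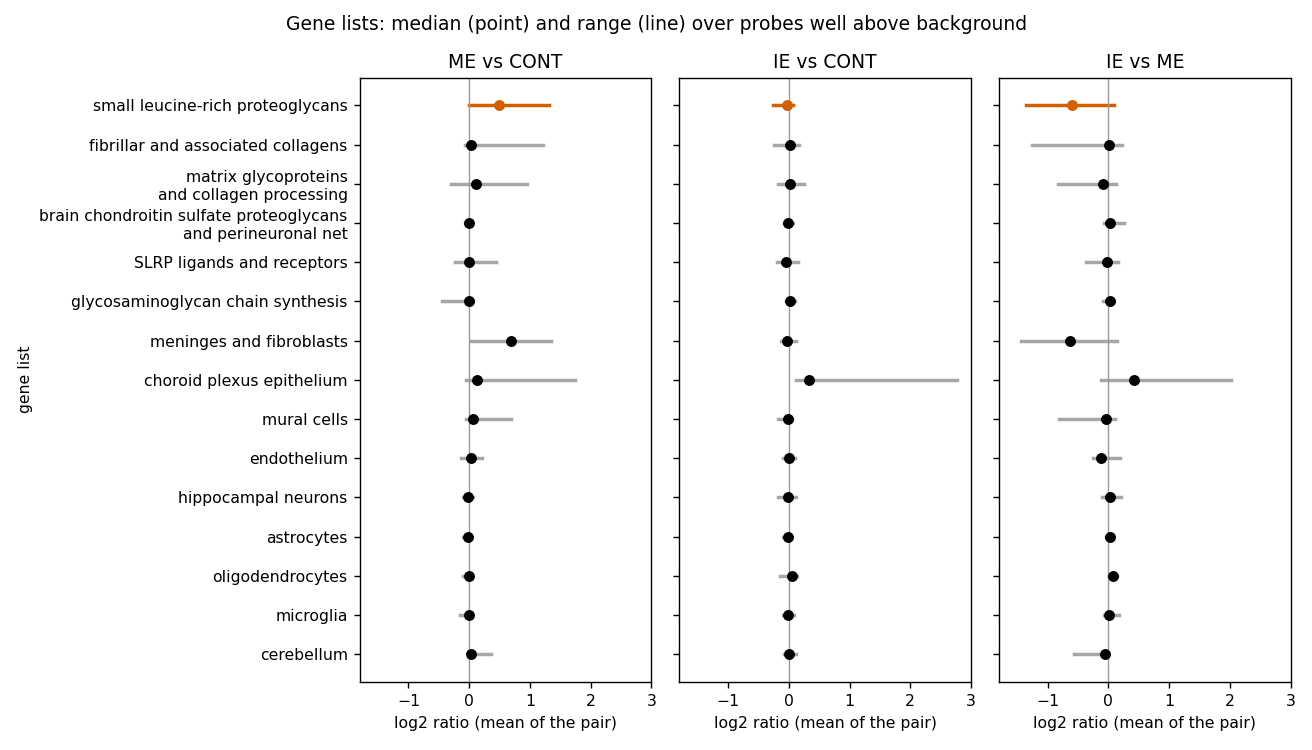
Median (point) and lowest to highest value (line) of log2 ratios (x axis) over the probes well above background of each gene list drawn (y axis) in the 3 comparisons, with the SLRPs in colour. The list of further SLRP genes is not drawn (median -0.26 with ME over 2 probes). SLRPs (median 0.49 with ME over 8 probes) and the markers of meninges and fibroblasts (0.69) lie above 0 with ME and below 0 in IE vs ME, while choroid plexus markers lie highest with IE (median 0.33).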

How the data were processed

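The authors extracted the scanned arrays with Agilent Feature Extraction, version 9.5.3.1 for the arrays against CONT and, per the file headers, 11.0.1.1 for IE vs ME. The log10 ratio of Cy5 over Cy3 deposited by the authors is background-subtracted and LOWESS-normalized, the deposited p-value is that of the software for 1 spot, and the deposited signals are linear intensity values. A table of log10 values from the authors, equal to the processed signals' ratio, was an alternative.

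Control features and outlier spots were left out, spots of a probe were averaged (median p), and ratios were turned to log2. Members, gene lists and motifs were chosen with earlier results of these data known. Named genes are all members, the 10 probes nearest to Ogn, and genes of each list with the 3 highest or lowest ME means. Other called list genes and chromosome neighbours were named after their values were seen. Names are those of the array, and 10726 probes were also named through RefSeq accessions, LOC306805 as Aspn among them. Software was Python 3.11.15, pandas 2.3.3, R 4.3.3 and limma 3.58.1, which gave the normexp (offset 50), loess and joint fits. Simulated ratios were used to check the code of the calling rule, not the calls. No promoter is shown for Dcn, Bgn and Prelp.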

Additional observations from a re-analysis of the deposited data

Results flagged for a closer look

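Lum (A_44_P458627) and Dcn (A_42_P647599) were the member probes whose ratios lay above 0 on both ME vs CONT arrays and below 0 on both IE vs CONT arrays. The IE mean minus the ME mean was -0.32 for Lum and -0.30 for Dcn on the log2 scale. The difference was not tested, since each group is 1 pool, and neither probe was called in any comparison. Of 28105 probes well above background against CONT, 1239 (4.41%) had opposite signs in this way, in either direction, beside 2 of 8 member probes (25.0%). Since these contrasts chose the family, nothing is read from that share. The ME mean of Lum, a dim probe, was 0.066, and it was 0.011 after normexp correction and 0.025 without background subtraction.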

How the results depend on the processing

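No paired analysis was possible because the labels pair no animals and 1 pool stands for each group. Called SLRP probes stayed within 1.5 times of the 3 with ME, the 0 with IE and the 3 between IE and ME under each alternative run, with 4 for ME and for IE vs ME without the p threshold, Omd being the fourth. With single arrays the counts ran from 3 to 4, from 0 to 0 and from 3 to 4. The SLRP median with ME was 0.49 over probes well above background and 0.22 with 1 mean per gene, against 0.27. In IE vs ME it was -0.26 by loess without background subtraction, against -0.48. With single arrays the median ran from 0.26 to 0.28 with ME, from -0.11 to 0.00 with IE and from -0.73 to -0.44 between IE and ME. With asporin counted as a member, which was chosen after seeing the data, the medians were 0.26, -0.035 and -0.59. No called member ratio changed sign under any alternative. Under normexp and loess, 6 of the 9 member ratios with ME, 0 with IE and 4 between IE and ME moved by more than the SD of their pair. Those that moved with ME included the brighter probes Ogn A_43_P16740 and Fmod, and Kera, whose pair had an SD of 0. The dim probes Ogn A_44_P994238, Omd, Lum and Prelp had lowest readings near 2 times the background, and of these Prelp did not move. Whether dimness accounts for the moves was not tested.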
